A study of Mus musculus with 18 samples.

Results

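Acta2, Col1a2, Eln, Ltbp2, Spp1, Sfrp1 and Fbln1 are genes of smooth muscle and of the matrix that such cells lay down, measured here in RNA from enriched male germ cells. They were found by the zero-padded gene number in the probe target names, which gave 8 probes for 7 genes, 1 each except for Fbln1 with 2, out of 46479 probes that are not controls. All 8 passed the filter of a detection p under 0.05 on at least 3 of the 18 arrays, as did 21313 probes in all. Several of the 7 were chosen by their measured difference between the 2 trisomies, so every value that sets Ts65Dn against Ts1Cje, or either alone, is given as a description with no test. Tests were made on contrasts that the difference between the trisomies does not enter: the age change in WT, the mean age change of both trisomies, and the mean of both trisomies against WT. These still share the estimate of the spread with the arrays on which the choice was made.

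The mice were Ts1Cje and Ts65Dn, both partial trisomies used as models of Down syndrome, and diploid wild-type littermates (WT), each taken at 16-17 or at 19-20 days after birth (days post partum, dpp). Each of the 6 groups holds 3 biological replicates, given per the authors' design text, for 18 arrays of the Illumina MouseWG-6 v1.1 type. Ts65Dn carries an extra chromosome with the distal part of chromosome 16 joined to the start of chromosome 17, and Ts1Cje carries a shorter part of chromosome 16 moved to the end of chromosome 12. From which trisomic line the WT littermates came is not given, nor is the way the germ cells were enriched or how many males went into a sample, and the same WT arrays serve as control for both trisomies.

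The seminiferous tubule is wrapped in a thin layer of peritubular myoid cells, smooth-muscle-like cells whose contractions move fluid and sperm along the tubule. Together with Sertoli cells they build the basement membrane, and they deposit collagens, elastic fibres and matrix glycoproteins around it. Germ cells lie inside this wall. The genes described here are known from the wall, from blood vessel muscle and from fibroblasts. In a bulk sample, fewer cells of a type and less RNA per cell cannot be told apart.

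None of the 7 genes lies on chromosome 16 or 17. On the mouse build GRCm38.p6, Acta2 is at chr19:34240336-34255585, Col1a2 at chr6:4505618-4541543, Eln at chr5:134702595-134747368, and Spp1 on the same chromosome as Eln at chr5:104435111-104441053. Sfrp1 is at chr8:23411383-23449632 and Fbln1 at chr15:85205949-85286294. Ltbp2, at chr12:84783212-84876558, shares its chromosome with the Ts1Cje translocation and ends 35.1 Mb before the last annotated gene.

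The 250 bases before the annotated start were in the RefSeq promoter table for 5 of the 7 genes, and those of 4 are shown, of Acta2, Col1a2 and Ltbp2, whose levels moved together from array to array within groups (correlations of 0.80 to 0.85), and of Spp1, which followed them little (-0.10 to 0.24), so that their letters can be set side by side. Both strands were searched for the CArG box, the site of serum response factor known from smooth muscle promoters, strictly and with 1 G or C in its A/T core. Also searched were TATANA for the TATA box, CCAAT for the site of that name, and TGANTCA for the AP-1 site. Further motifs were AACCACA, known as the core of Runx sites, and CAGACA, known as a Smad element. The last were GGGCGG, the GC box, and CANNTG, the E-box, which is not set in capitals and which 66.2% of all promoters hold. Capitals mark each match of the others, on either strand. The windows are chr19:34255374-34255623, minus strand (Acta2), chr6:4505368-4505617, plus strand (Col1a2), chr12:84876492-84876741, minus strand (Ltbp2) and chr5:104434861-104435110, plus strand (the first of 2 windows of Spp1), each printed 5′ to 3′ in the direction of the gene.
Acta2: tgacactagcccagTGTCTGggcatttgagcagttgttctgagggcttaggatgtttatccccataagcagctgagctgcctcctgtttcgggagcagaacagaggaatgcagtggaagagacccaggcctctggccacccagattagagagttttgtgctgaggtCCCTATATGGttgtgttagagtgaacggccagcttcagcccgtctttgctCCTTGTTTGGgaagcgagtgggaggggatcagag
Col1a2: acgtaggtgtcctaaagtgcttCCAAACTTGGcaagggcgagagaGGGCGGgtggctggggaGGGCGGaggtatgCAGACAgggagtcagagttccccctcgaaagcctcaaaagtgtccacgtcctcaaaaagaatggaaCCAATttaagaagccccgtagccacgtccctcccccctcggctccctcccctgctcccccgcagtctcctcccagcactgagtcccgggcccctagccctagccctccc
Ltbp2: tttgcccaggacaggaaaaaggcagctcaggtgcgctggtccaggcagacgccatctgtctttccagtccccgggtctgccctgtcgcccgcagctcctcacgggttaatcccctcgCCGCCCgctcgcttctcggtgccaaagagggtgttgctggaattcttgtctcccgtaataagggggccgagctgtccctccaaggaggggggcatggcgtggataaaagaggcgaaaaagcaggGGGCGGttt
Spp1: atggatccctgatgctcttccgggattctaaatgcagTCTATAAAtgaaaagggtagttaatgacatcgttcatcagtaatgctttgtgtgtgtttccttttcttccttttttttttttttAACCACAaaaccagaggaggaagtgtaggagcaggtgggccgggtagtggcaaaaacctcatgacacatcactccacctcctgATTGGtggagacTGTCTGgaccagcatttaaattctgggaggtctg

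No strict CArG box was matched in the windows of the 5 genes, and 1.47% of the 32851 promoters in the table hold one. Acta2 has 2 boxes with 1 G or C in the core, at -84 to -75 and at -34 to -25 where -1 is the base before the annotated start, and Col1a2 has 1 at -228 to -219. Such boxes occur in 7.24% of all promoters. Of the motifs in capitals Ltbp2 has GGGCGG only, at -133 to -128 and at -9 to -4, a motif of 32.7% of promoters that Col1a2 also carries. Spp1 has overlapping TATANA matches at -213 and -211, CCAAT at -46 to -42 and AACCACA at -129 to -123. CAGACA is shared by Spp1 (-34 to -29), Acta2 (-236 to -231) and Col1a2 (-175 to -170). Col1a2 also holds CCAAT, at -109 to -105. AACCACA is in 4.40% of promoters, CCAAT in 33.8%, TATANA in 22.6%, CAGACA in 17.1% and TGANTCA in 6.75%. A match of letters is a description of the sequence only. Over the shown windows no capital motif was common to all 4.

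The arrays were alike in signal: 17102 to 19784 probes were detected per array, the array medians of raw intensity ran from 179.4 to 225.2, and the correlation between arrays of a group was 0.925 to 0.988. The probes of the 7 genes were read from 16 to 61 beads per array. Germ cell markers followed the labelled ages in WT. By limma, 5 of 7 round spermatid genes rose there from 16-17 to 19-20 dpp (median log2 change 2.62). In the mean of both trisomies 5 of 7 rose (median 1.98), but the median was 2.71 in Ts1Cje and only 0.42 in Ts65Dn. Of all tested probes 18.5% rose in WT and 19.7% in the mean of the trisomies by the same test. Markers of somatic cells were also present: the Sertoli genes Wt1, Gata4, Dhh and Trf, 4 of 17 listed that had a tested probe, were each detected on at least 1 array of every group, with a mean normalised log2 level of 9.49 to 11.67 over the arrays. Of 19 listed peritubular muscle genes only 3 had a tested and named probe, Mylk among them. The defining genes Myh11, Des, Tagln and Cnn1 had none, so the label rests here on Acta2 and Mylk.

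In all that follows a level is the background-corrected, quantile-normalised log2 intensity of a probe, an SD is over the 3 arrays of a group, and a change is a difference of log2 means ± the standard error (SE) of the limma model. A probe was called at an adjusted p under 0.05 (limma, Benjamini-Hochberg over all 21313 tested probes). Levels of different probes are not compared, because probes differ in brightness.

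**Figure D1:**
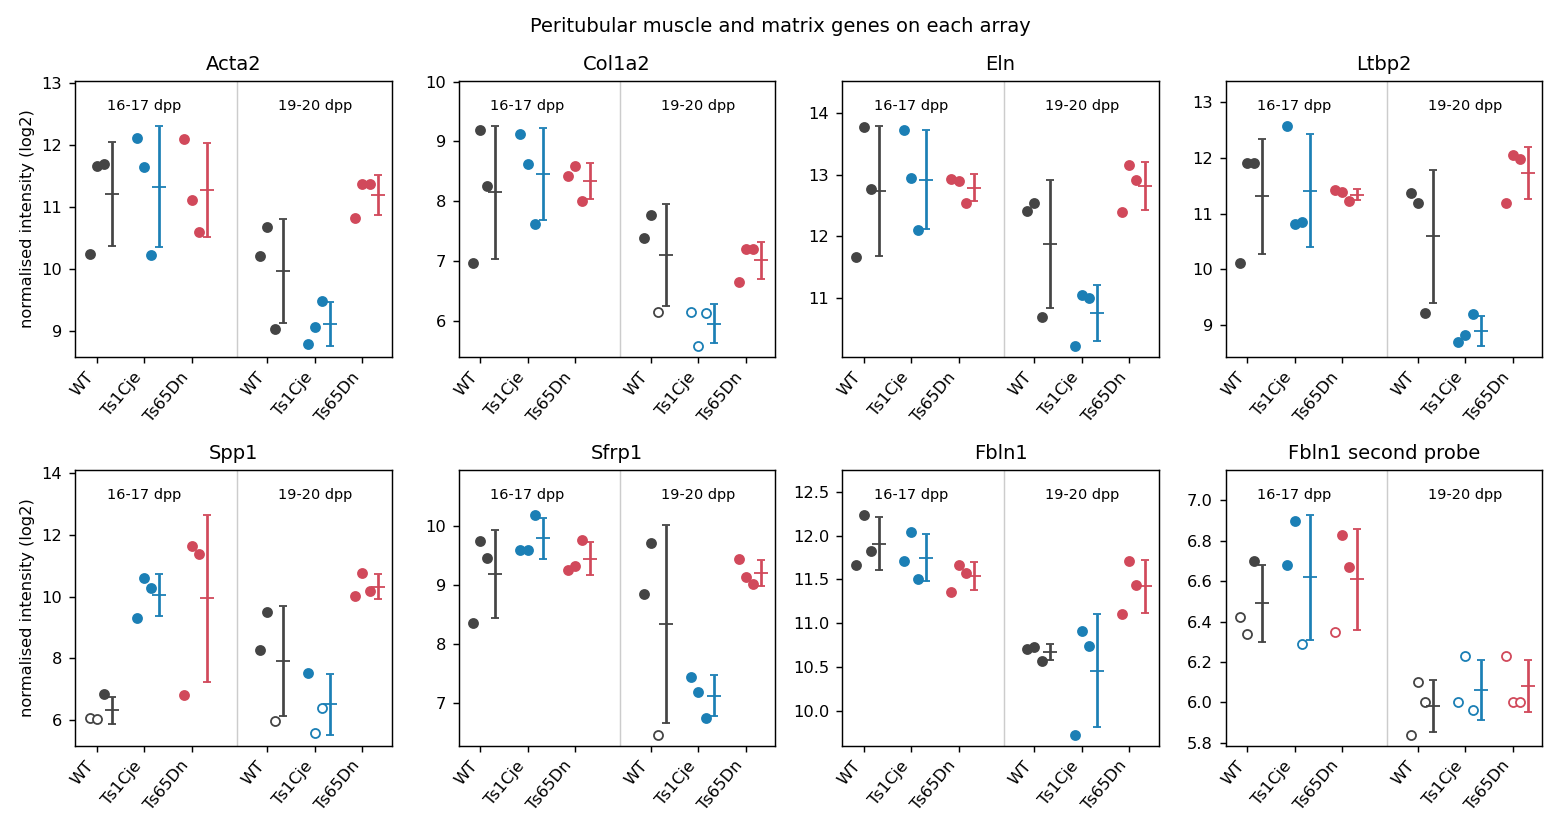
Normalised log2 intensity of the 8 probes on each of the 18 arrays, with 6 groups on the x axis (WT grey, Ts1Cje blue, Ts65Dn red). Points are arrays, open where the probe was not detected (detection p of 0.05 or more), and the bars give the mean ± SD of 3 arrays; for 7 probes the 3 Ts1Cje arrays at 19-20 dpp lie below the 3 Ts65Dn arrays, and the second Fbln1 probe stays near background.

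Acta2 encodes smooth muscle alpha-actin, the main actin of contractile peritubular cells. At 16-17 dpp its level was 10.24, 11.67 and 11.70 in WT, 12.12, 11.65 and 10.23 in Ts1Cje, and 12.10, 11.12 and 10.60 in Ts65Dn. The 3 groups overlapped, and each held at least 1 array more than 1 log2 unit from another. At 19-20 dpp it was 10.21, 10.67 and 9.03 in WT, 8.79, 9.06 and 9.49 in Ts1Cje, and 10.82, 11.37 and 11.38 in Ts65Dn. Here every Ts65Dn array was above every array of the other groups, and the Ts1Cje arrays overlapped only the lowest WT array. Acta2 was 2.08 ± 0.54 higher in Ts65Dn than in Ts1Cje at 19-20 dpp, a 4.22-fold difference, and differed by -0.06 ± 0.54 at 16-17 dpp. In order of mean level the first 4 groups, all of 16-17 dpp and Ts65Dn of 19-20 dpp, lay between 11.19 and 11.33 and differed by less than their spread. WT of 19-20 dpp (9.97) and Ts1Cje of 19-20 dpp (9.11) came last and differed from each other by 0.86, less than the sum of their SDs, 1.20.

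Col1a2 encodes the alpha-2 chain of type I collagen, the fibrillar collagen of connective tissue. At 16-17 dpp it measured 6.98, 9.19 and 8.26 in WT, 9.13, 8.63 and 7.63 in Ts1Cje, and 8.42, 8.59 and 8.01 in Ts65Dn. At 19-20 dpp it measured 7.39, 7.78 and 6.16 in WT, 6.15, 5.59 and 6.13 in Ts1Cje, and 6.66, 7.20 and 7.20 in Ts65Dn. The 3 Ts1Cje arrays of the later age, and WT replicate 3, were not detected, with raw intensities of 215, 155, 192 and 205. Since Ts1Cje has only an upper bound there, Col1a2 was at least 1.26-fold higher in Ts65Dn than in Ts1Cje at 19-20 dpp, where the measured means were 7.02 and 5.96. It was also at least 3.44-fold lower in Ts1Cje at 19-20 than at 16-17 dpp. For such bounds the dim group was set to the lowest signal among detected probes of each array, or to its own where that was higher. Col1a2 was the 1 gene of the 7 whose Ts65Dn arrays also did not overlap between ages, with a change of -1.32 ± 0.51.

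Eln encodes tropoelastin, the core protein of elastic fibres. At 16-17 dpp the level was 11.67, 13.78 and 12.77 in WT, 13.72, 12.94 and 12.11 in Ts1Cje, and 12.93, 12.90 and 12.54 in Ts65Dn. At 19-20 dpp it was 12.42, 12.54 and 10.70 in WT, 10.23, 11.05 and 11.01 in Ts1Cje, and 12.40, 13.16 and 12.91 in Ts65Dn. Ts1Cje stood lowest at the later age, with WT replicate 3 inside its range and the other WT arrays inside that of Ts65Dn. Ts65Dn exceeded Ts1Cje by 2.06 ± 0.54 at 19-20 dpp (4.17-fold) and by -0.13 ± 0.54 at 16-17 dpp.

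Ltbp2 belongs to the latent TGF-beta binding proteins and is a component of fibrillin microfibrils. Its level at 16-17 dpp was 10.12, 11.91 and 11.90 in WT, 12.57, 10.82 and 10.84 in Ts1Cje, and 11.42, 11.38 and 11.22 in Ts65Dn. At 19-20 dpp the arrays read 11.36, 11.18 and 9.22 in WT, 8.69, 8.82 and 9.20 in Ts1Cje, and 11.19, 12.04 and 11.98 in Ts65Dn. All 3 Ts1Cje arrays lay below all 3 WT arrays, by 0.02 for the nearest pair, and below all of Ts65Dn. The difference of Ts65Dn minus Ts1Cje at 19-20 dpp was 2.83 ± 0.59 (7.11-fold), against -0.07 ± 0.59 at 16-17 dpp.

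Fbln1 encodes fibulin-1, a glycoprotein of basement membranes and elastic fibres, and its main probe had the smallest SE of the 7 main probes. It read 11.67, 12.24 and 11.83 in WT, 11.71, 12.04 and 11.50 in Ts1Cje, and 11.36, 11.67 and 11.57 in Ts65Dn at 16-17 dpp. The later arrays read 10.71, 10.73 and 10.57 in WT, 9.73, 10.91 and 10.74 in Ts1Cje, and 11.11, 11.71 and 11.44 in Ts65Dn. The WT and Ts1Cje arrays of 19-20 dpp all lay below every array of 16-17 dpp, while those of Ts65Dn overlapped them. Ts65Dn minus Ts1Cje was 0.96 ± 0.27 at 19-20 dpp (1.95-fold), and 0.60 ± 0.21 without Ts1Cje replicate 1, the lowest array. The second Fbln1 probe was detected on 5 arrays, all of 16-17 dpp, and no group mean exceeded 6.62. It showed 0.01 ± 0.18 for the same difference, but was not detected on any array of either group, so it holds no information on that difference.

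Spp1 encodes osteopontin, a secreted phosphoprotein that binds integrins and CD44, and it had the largest SE of the 7 probes. At 16-17 dpp it read 6.07, 6.03 and 6.82 in WT, where replicate 3 alone was detected, 9.31, 10.61 and 10.27 in Ts1Cje, and 6.80, 11.65 and 11.37 in Ts65Dn. Before correction, those WT arrays had intensities of 202, 188 and 254, the Ts1Cje arrays 789, 1861 and 1189, and the Ts65Dn arrays 306, 3676 and 2458. Both trisomies thus held bright arrays that WT lacked, with Ts65Dn replicate 1 at the level of WT. At 19-20 dpp Spp1 read 8.26, 9.49 and 5.95 in WT, 7.53, 5.58 and 6.38 in Ts1Cje, where replicate 1 alone was detected, and 10.01, 10.77 and 10.18 in Ts65Dn. The order of groups had changed: Ts65Dn was above all arrays of the other groups, and Ts1Cje overlapped WT. Ts65Dn minus Ts1Cje was 3.82 ± 1.05 at 19-20 dpp and -0.12 ± 1.05 at 16-17 dpp. No fold is given for the later age, since 2 of the 3 Ts1Cje arrays were not detected, and the difference was 2.57 without background correction.

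Sfrp1 encodes a secreted protein that binds Wnt ligands and dampens Wnt signalling. The 16-17 dpp arrays read 8.35, 9.75 and 9.47 in WT, 9.60, 9.60 and 10.20 in Ts1Cje, and 9.25, 9.33 and 9.77 in Ts65Dn. Those of 19-20 dpp read 8.85, 9.71 and 6.46 in WT, 7.43, 7.19 and 6.74 in Ts1Cje, and 9.44, 9.14 and 9.02 in Ts65Dn. WT replicate 3 of 19-20 dpp, the 1 array without detection, fell below all Ts1Cje arrays, and the other WT arrays read near Ts65Dn. The difference of Ts65Dn minus Ts1Cje was 2.08 ± 0.59 at 19-20 dpp, 1.28 without background correction, and -0.35 ± 0.59 at 16-17 dpp.

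All 7 genes therefore read higher in Ts65Dn than in Ts1Cje at 19-20 dpp with no overlap of the 3 arrays against 3, which is a description, since several were chosen for this difference. Of all tested probes 20.0% did so in that direction, and the median difference was 2.08 for the 7 genes and 0.08 for all probes. At 16-17 dpp all 7 differences were slightly below 0 with a median of -0.12, 5 of them lay above 0 with 1 array or another left out, and none was free of overlap, where 6.24% of probes were higher and 5.63% lower without overlap. Against WT at 19-20 dpp the 2 trisomies lay on opposite sides for 6 of the 7 genes, Ts65Dn above and Ts1Cje below, and for Col1a2 both means were below WT, Ts65Dn by -0.09 ± 0.51. These sides rested on single arrays for 3 genes. For Sfrp1, Ts65Dn minus WT was 0.85 ± 0.59 with all arrays and -0.09 ± 0.38 without WT replicate 3. For Fbln1, Ts1Cje minus WT was -0.21 ± 0.27 with all arrays, 0.15 ± 0.21 without Ts1Cje replicate 1 and 0.11 ± 0.18 with array weights. For Col1a2, Ts65Dn minus WT was 0.24 ± 0.56 without WT replicate 2, and also above 0 without WT replicate 1 or Ts65Dn replicate 1. Ts65Dn arrays did not overlap WT for Acta2 (1.22 ± 0.54), Spp1 (2.42 ± 1.05) and Fbln1 (0.75 ± 0.27), a state shared by 25.3% of probes. Ts1Cje arrays did not overlap WT for Col1a2, at least 1.34-fold lower, and Ltbp2 (-1.68 ± 0.59), where 3.45% of probes lay lower without overlap. At 16-17 dpp only Spp1 stood apart from WT, in Ts1Cje (3.75 ± 1.05, and 2.41 ± 0.73 without background correction), where 2.52% of probes were higher without overlap. In Ts65Dn at that age 0 of 7 were free of overlap with WT and 10.6% of probes were higher without it. The comparisons with WT share the WT arrays. The numbers in the array names form 3 runs of 6, each with 1 array of every group. Within runs Ts65Dn minus Ts1Cje at 19-20 dpp ranged from 0.51 for Col1a2 in the first to 5.19 for Spp1 in the second. That all 7 genes were above 0 in each run follows from the lack of overlap and adds nothing to it.

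**Figure D2:**
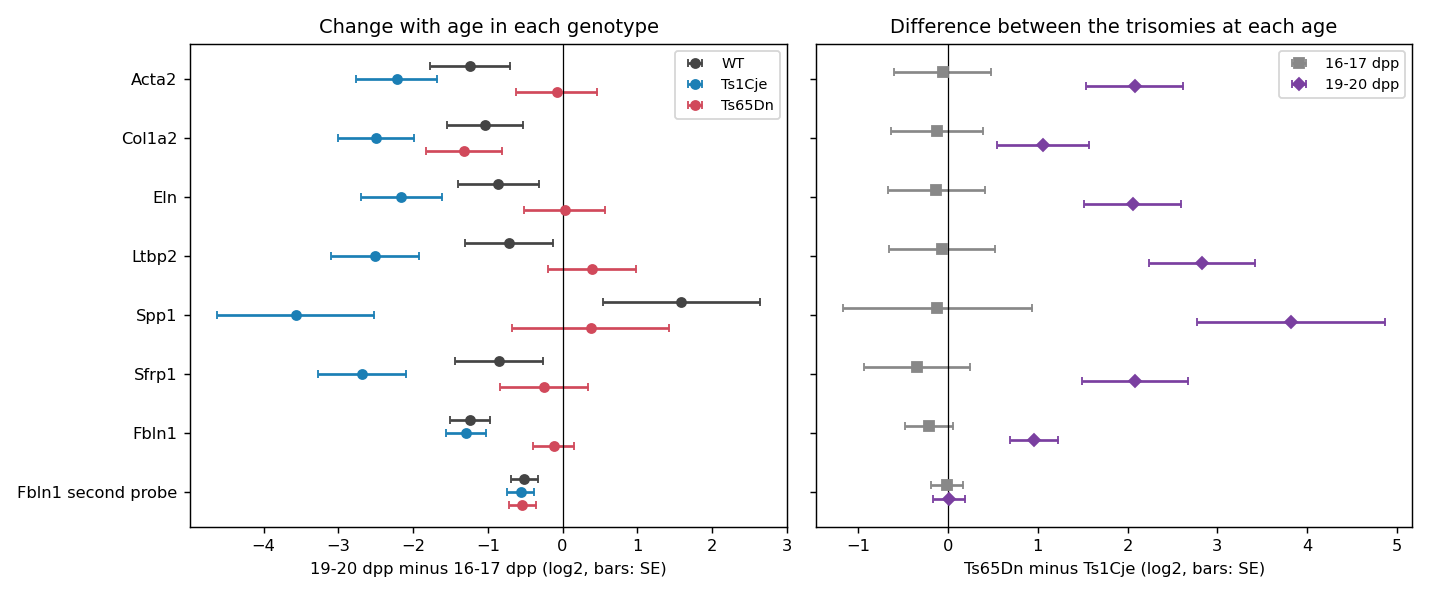
Left: change from 16-17 to 19-20 dpp of each probe (log2, x axis) in WT, Ts1Cje and Ts65Dn. Right: Ts65Dn minus Ts1Cje at each age. Points are differences of means of 3 arrays and bars their SE; at 16-17 dpp the differences lie near 0 (-0.35 to -0.01), and at 19-20 dpp they run from 0.96 to 3.82 apart from the second Fbln1 probe at 0.01.

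The first tested question was how the genes changed with age in WT, whose arrays the choice of genes had not used. Fbln1 fell by 1.24 ± 0.27 in WT, from a mean of 11.91 to 10.67, and passed the test (adjusted p = 0.0030, limma). It was the 1 gene of 7 called, against 46.7% of all tested probes, of which 28.2% were called lower and 18.5% higher. Its 3 later arrays were also all below its 3 earlier ones, as for 37.0% of probes. The changes of Acta2 (-1.24 ± 0.54, adjusted p = 0.072), Col1a2 (-1.04 ± 0.51, adjusted p = 0.11) and Eln (-0.86 ± 0.54, adjusted p = 0.20) did not pass. Nor did those of Ltbp2 (-0.72 ± 0.59), Sfrp1 (-0.85 ± 0.59) and Spp1 (1.59 ± 1.05), the 1 gene with a mean above 0. Their 95% intervals were wide, from -2.39 to -0.08 for Acta2 and from -0.66 to 3.84 for Spp1. The median was -0.86 for the 7 genes and -0.23 for all probes.

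Within the 3 runs of array numbers the median WT age change of the 7 genes was 0.87, -1.36 and -2.11, with 1, 6 and 7 of them below 0. The WT counts rested on single arrays. Without WT replicate 1 of 16-17 dpp 4 genes were called, namely Fbln1, Acta2 (-1.72 ± 0.56, adjusted p = 0.022), Col1a2 (-1.62 ± 0.48, adjusted p = 0.015) and Eln (-1.39 ± 0.54, adjusted p = 0.047). Without WT replicate 2 of 19-20 dpp 3 were called, Sfrp1 at -1.53 ± 0.54 among them (adjusted p = 0.037), and without Ts1Cje replicate 3 of 16-17 dpp 2 were called (limma). The count over all probes fell from 9952 to 5315 without WT replicate 1 of 19-20 dpp, to 6367 without WT replicate 2 of 16-17 dpp and to 6259 without replicate 3 of that group. The second Fbln1 probe was called lower in WT by limma (adjusted p = 0.032) with 1 of 3 earlier and 0 of 3 later arrays detected, so no size is given. That call was lost with median scaling (adjusted p = 0.064) and without WT replicate 3 of 16-17 dpp (0.13) or WT replicate 1 or 3 of 19-20 dpp (0.11 and 0.06).

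In the mean of both trisomies 6 of the 7 genes fell with age (limma adjusted p under the threshold of 0.05), where 52.6% of all tested probes were called, 32.9% lower and 19.7% higher. Col1a2 fell by 1.91 ± 0.36 (adjusted p = 0.00095) and its 6 later arrays all lay below its 6 earlier ones, which held for 6.43% of probes. Of these later arrays, those of Ts1Cje were all undetected, and the change was -1.06 ± 0.22 without background correction. Sfrp1 fell by 1.47 ± 0.41 (adjusted p = 0.0092) and Fbln1 by 0.70 ± 0.19 (adjusted p = 0.0071). Acta2 fell by 1.15 ± 0.38 (adjusted p = 0.021), Eln by 1.06 ± 0.39 (adjusted p = 0.031) and Ltbp2 by 1.06 ± 0.42 (adjusted p = 0.044). Spp1 changed by -1.59 ± 0.75 and did not pass (adjusted p = 0.084), but was called without Ts65Dn replicate 1 of 16-17 dpp, its low array (-2.38 ± 0.52, adjusted p = 0.0039). The calls of Acta2, Eln and Ltbp2 were lost, leaving 3, without Ts1Cje replicate 1 of 16-17 dpp (adjusted p = 0.051, 0.075 and 0.11) or without Ts65Dn replicate 1 of 19-20 dpp (0.053, 0.075 and 0.11). All 3 were also lost without Ts65Dn replicate 1 of 16-17 dpp (adjusted p = 0.059, 0.059 and 0.075), where limma called Spp1. Eln and Ltbp2 failed without Ts65Dn replicate 2 of 16-17 dpp (0.058, 0.074) or Ts1Cje replicate 1 of 19-20 dpp (0.076, 0.084). Eln also failed without Ts1Cje replicate 2 of 16-17 dpp (0.054). Ltbp2 also failed without Ts1Cje replicate 2 of 19-20 dpp (0.069) or Ts65Dn replicate 3 of 16-17 dpp (0.063) or 19-20 dpp (0.055). All 3 calls were lost too with all 46479 probes kept in the test (0.051, 0.072 and 0.10). Those of Col1a2, Sfrp1 and Fbln1 held there and with each array left out in turn. Within the 3 runs of array numbers 6, 7 and 6 of the 7 genes were below 0, with Spp1 above it in the first run and Acta2 in the third (0.02).

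That mean joins trisomies that differ in the description by genotype. In Ts1Cje all 7 genes were lower at the later age without overlap of arrays, as were 28.8% of probes, with a median change of -2.50. In Ts65Dn the median was -0.08, near the -0.09 of all probes, and 1 of 7 was lower without overlap, where 27.9% of probes were. Ts1Cje changes ran from -1.29 ± 0.27 for Fbln1 to -3.57 ± 1.05 for Spp1. For Ts65Dn they ran from -1.32 ± 0.51 for Col1a2 to 0.39 ± 0.59 for Ltbp2. The WT changes of 5 genes lay between those of the trisomies, while those of Col1a2 (-1.04) and Spp1 (1.59) lay above both.

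Both trisomies together were compared with WT to ask whether the genes differed from diploid littermates at either age. At 16-17 dpp 0 of 7 genes and 2 of all probes (0.00938%) were called by limma, with 882 probes at an unadjusted p under 0.05. Spp1 did not pass at a difference of 3.69 ± 0.91 (95% interval 1.74 to 5.64, adjusted p = 0.45), and 5 of the 6 trisomic arrays were above every WT array. No fold is given, since 1 of 3 WT arrays was detected, and without background correction the difference was 2.48 ± 0.63 (limma adjusted p = 0.58). Within the runs of array numbers it was 1.98, 5.10 and 3.99. Without Ts65Dn replicate 1 the difference was 4.48 ± 0.63 and was called (adjusted p = 0.029). The other genes lay between -0.27 ± 0.23 for Fbln1 and 0.43 ± 0.51 for Sfrp1. At 19-20 dpp none was called by limma among the 7 genes or all probes (0%), with 1979 probes and 0 of the 7 at an unadjusted p under 0.05, and the differences ran from -0.62 ± 0.44 for Col1a2 to 0.51 ± 0.91 for Spp1. The 95% intervals there ran from -1.10 to 0.91 for Eln and from -1.44 to 2.46 for Spp1.

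The interaction, the age change of both trisomies minus that of WT, called 0 of 7 genes and 0 of all probes (0%), with 1066 probes at an unadjusted p under 0.05 in limma. Spp1 had the largest value among the 7, -3.18 ± 1.29 (adjusted p = 0.96), the difference between age changes of -1.59 and 1.59, neither of which passed. The intervals of the other 6 included 0, for example -1.33 to 1.50 for Acta2 and -0.16 to 1.23 for Fbln1, so neither equal nor unequal age changes were shown.

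In WT, replicates of a group differed in the 7 genes together. WT replicate 3 of 19-20 dpp was below its group mean in all 7, on average by -1.20, and WT replicates 1 and 2 were above it in all 7 (0.39 and 0.81). WT replicate 1 of 16-17 dpp was below its group mean in all 7, by -0.82 on average. The mean deviations of the trisomic arrays lay between -0.42 and 0.35, and none of these arrays had all 7 genes on the same side. Ts65Dn replicate 1 of 16-17 dpp averaged -0.34 with 4 genes above its group mean and 3 below. Over the 21 pairs of genes, the correlation of deviations from the group means over 18 arrays ran from -0.10 to 0.90 with a median of 0.54, and from 0.38 to 0.90 in the 10 pairs without Spp1 and Fbln1. Probes of an array share its labelling and normalisation, and these correlations are descriptions.

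The same deviations were set against lists of other genes. Their correlation with the mean of the 7 genes was 0.87 for 5 elastic fibre genes, 0.85 for 6 collagens, 0.83 for 7 matrix glycoproteins and proteoglycans, 0.65 for 3 peritubular muscle genes and 0.54 for 4 endothelial genes. It was 0.05 for Sertoli, 0.03 for Leydig, -0.03 for macrophage, -0.06 for red cell and 0.22 for spermatogonia markers. Over the 18 arrays, the mean of the 7 genes thus moved with collagen and elastic fibre genes and little with the markers of Sertoli, Leydig or immune cells. The widest deviations of that mean were in WT, and not every group showed the shared movement. In Ts1Cje of 19-20 dpp the mean of the 7 genes deviated by -0.09 to 0.13. The collagens ran there from -0.66 to 0.54 and the Sertoli markers from -0.95 to 0.52.

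**Figure D3:**
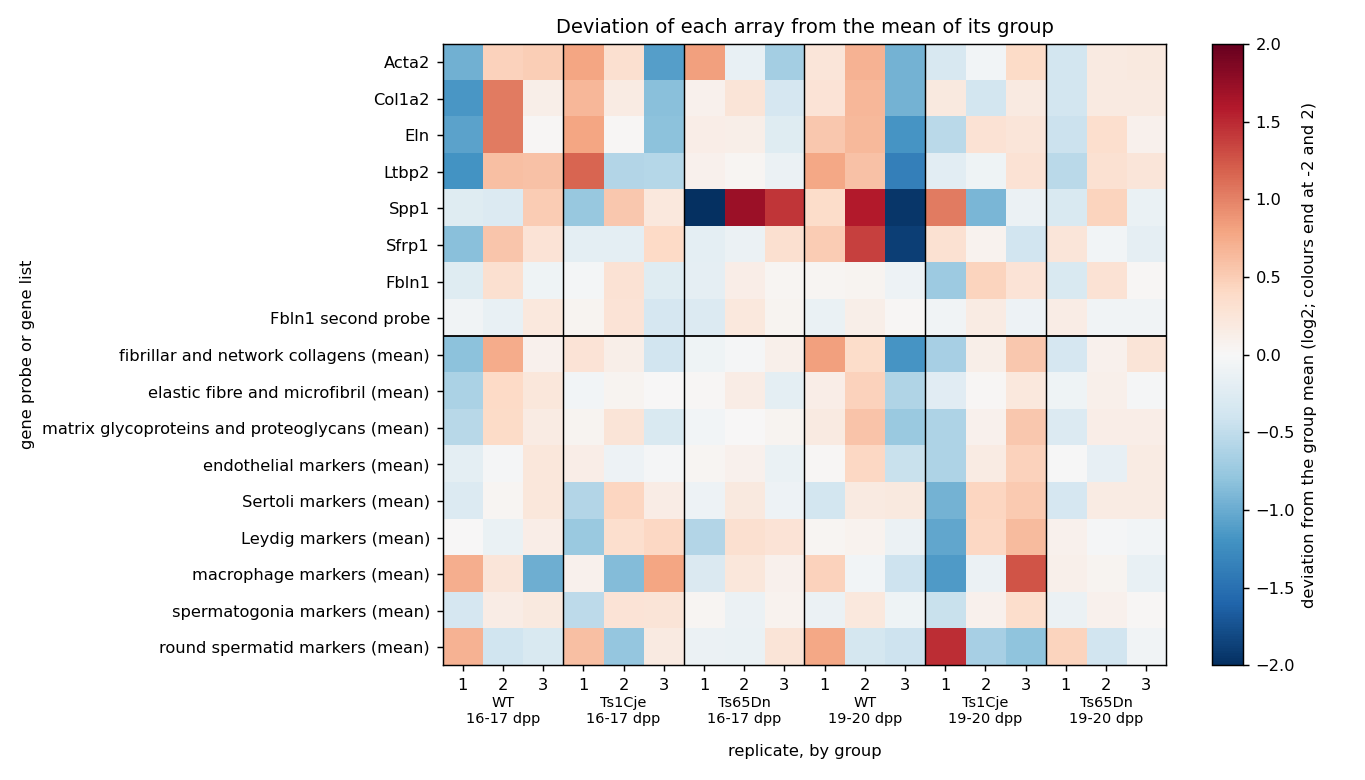
Deviation of each array from the mean of its group (colour, log2, red above and blue below) for the 8 probes and for the mean of 9 gene lists, with the 18 arrays on the x axis. WT replicate 1 of 16-17 dpp and WT replicate 3 of 19-20 dpp are blue for the 7 main probes and for the collagen, elastic fibre and matrix lists, with mean deviations of the 7 genes of -0.82 and -1.20.

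The genes most like the mean profile of the 7, ranked by Pearson correlation over the 18 arrays among 4804 named genes, were Flnc, Col6a3, Plpp3 and Hspg2 (0.97 each), then Col6a1, Cx3cl1, Tgfb1i1, Rcsd1, Myadm and Ptgis (0.96 each). Flnc encodes a muscle filamin that crosslinks actin, Tgfb1i1 a focal adhesion protein, Hspg2 the basement membrane proteoglycan perlecan, Col6a1 and Col6a3 chains of type VI collagen, and Ptgis prostacyclin synthase. Within groups, their deviations correlated with those of the 7 genes at 0.88 (Cx3cl1) to 0.96 (Col6a1). Acta2 was most like Tspan2 and Cx3cl1 (0.98 each) and Ckb (0.97). Eln was most like Tgfb1i1 (0.97), Ltbp2 like Ptgis (0.96), Col1a2 like 6330403K07Rik (0.95) and Sfrp1 like Pbxip1 (0.90). Fbln1 followed other genes, Mafg and Zfp292 among them (0.96 each), and Spp1 was most like H2-D1, a class I histocompatibility gene, at only 0.88.

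Other genes of the wall, from lists chosen with earlier results of these data known, were counted in the same way, beside 28.2% of all probes called lower in WT and 32.9% in the mean of the trisomies. Of 6 collagens with a tested probe (13 listed), 2 fell in WT, Col15a1 by 1.23 ± 0.34 and Col5a1 by 1.11 ± 0.32. All 6 fell in the mean of the trisomies, among them Col3a1 by 1.63 ± 0.44 and Col15a1 by 1.51 ± 0.24 (limma). Of 7 matrix glycoproteins and proteoglycans (24 listed), 3 fell in WT, the matricellular Ccn1 by 1.42 ± 0.52, Hspg2 by 0.93 ± 0.36 and the laminin chain Lama5 by 0.82 ± 0.27, and 7 in the trisomies, among them thrombospondin-2, Thbs2 (-1.87 ± 0.42) and decorin, Dcn (-1.24 ± 0.33). The matrix count in WT was 5 without WT replicate 1 of 16-17 dpp, and 0 without replicate 2 or 3 of that group or without replicate 1 or 3 of WT at 19-20 dpp. The collagen count in WT was 4 without WT replicate 1 of 16-17 dpp and 1 without replicate 2 of that group.

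Of 5 elastic fibre genes (17 listed) 0 were called in WT by limma, also at an unadjusted p under 0.05, and 3 fell in the trisomies, Ltbp3 (-1.33 ± 0.34), Fbln2 (-1.21 ± 0.24) and the crosslinking enzyme Loxl2 (-0.42 ± 0.16). The WT count for these was 2 without WT replicate 1 of 16-17 dpp and 1 without WT replicate 2 of 19-20 dpp. Of 3 peritubular muscle genes 1 was called, Mylk, the kinase that starts smooth muscle contraction, which fell by 1.00 ± 0.33 in WT (adjusted p = 0.024, limma) and by 0.82 ± 0.23 in the trisomies (adjusted p = 0.0094). Its WT call was lost without replicate 2 or 3 of WT at 16-17 dpp or replicate 1 or 3 of WT at 19-20 dpp. Ptch1, a receptor of hedgehog ligands, was not called in either (-0.27 ± 0.23 and -0.24 ± 0.17). In the comparisons of both trisomies with WT and in the interaction, 0 genes of these 4 lists were called by limma. At an unadjusted p under 0.05 there were 1 elastic fibre and 1 matrix gene at 16-17 dpp, 1 matrix gene at 19-20 dpp and 1 elastic fibre gene in the interaction. With median scaling in place of quantile normalisation, Mylk was not called in WT, and neither was any matrix gene.

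Pathways of the secreted members were read in the same way, beside the same 28.2% and 32.9% of all probes called lower. Of 5 TGF-beta genes (15 listed) 3 fell in WT, Tgfbr3 by 0.93 ± 0.34, Smad4 by 0.90 ± 0.28 and Tgfbr1 by 0.67 ± 0.18, and 4 fell in the trisomies, the ligand Tgfb2 by 1.32 ± 0.24 first. The WT count was 0 with median scaling, 5 without WT replicate 1 of 16-17 dpp and 1 without replicate 2 or 3 of that group or replicate 1 of WT at 19-20 dpp. Of 5 Wnt genes (23 listed) 5 fell in WT, led by the ligand Wnt6 (-1.82 ± 0.51) and the co-receptor Lrp6 (-1.67 ± 0.58), and Frzb, a secreted Wnt inhibitor of the Sfrp1 family, fell by 1.35 ± 0.47. In the trisomies 2 of these fell, Wnt6 by 1.68 ± 0.36 and Lrp6 by 1.29 ± 0.41. The WT count was 2 without replicate 2 or 3 of WT at 16-17 dpp and 1 without WT replicate 1 of 19-20 dpp. All 3 tested genes of osteopontin receptors and integrin adhesion (14 listed) fell in WT and in the trisomies, with Itgb5 at -1.41 ± 0.36 and -0.90 ± 0.26 and Itgav at -1.16 ± 0.28 and -0.87 ± 0.20.

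Markers of other testis cells were read beside the same shares, 32.9% of all probes called lower in the mean of the trisomies and 28.2% in WT. In the mean of the trisomies 3 of 4 Sertoli, 5 of 8 Leydig, 3 of 4 macrophage, 4 of 4 endothelial and 5 of 5 spermatogonia genes fell, and in WT 3, 1, 0, 2 and 3 of them. Of the Sertoli genes, 1 was called in WT with median scaling or without replicate 3 of WT at 16-17 dpp, and 0 without WT replicate 1 of 19-20 dpp. Of the endothelial genes, 1 was called in WT without any 1 of these arrays or WT replicate 2 of 16-17 dpp. No macrophage gene passed in WT by limma, also at an unadjusted p under 0.05. Of 3 red cell genes 1 fell in the trisomies, and 0 to 2 with 1 array left out, while 0 passed in WT by either measure. Of 13 listed prophase genes only the cohesin core subunits Smc1a and Smc3 were tested, and both fell in WT and in the trisomies. Sycp1, Sycp3, Dmc1 and Smc1b of that list had no tested probe, so it says little on meiotic prophase itself. Both tested pachytene to diplotene genes (11 listed), Aurkc and Zpbp, rose in WT and in the trisomies. The part of cell makeup in the age changes of the 7 genes was not tested.

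Between the trisomies at 19-20 dpp the lists differed in size and direction, where the median over all probes was 0.08. The median difference of Ts65Dn minus Ts1Cje was 1.35 for collagens (6 of 6 above 0), 1.12 for matrix genes (7 of 7), 0.92 for elastic fibre genes (4 of 5) and 0.38 for peritubular muscle genes (3 of 3). It was 0.68 for TGF-beta genes (5 of 5), 0.51 for osteopontin receptors and integrins (3 of 3) and 0.05 for Wnt genes (3 of 5). Among the cell markers it was 0.87 for endothelial genes (4 of 4), 0.37 for Sertoli genes (3 of 4) and 1.16 for spermatogonia genes (5 of 5). It was -0.49 for Leydig genes, -0.11 for red cell genes, -1.37 for macrophage genes (4 of 4 below 0), -1.24 for pachytene to diplotene genes and -1.91 for round spermatid genes (7 of 7 below 0). Summed linear intensity of the 6 collagens ran from 10896 to 17232 in Ts65Dn and from 3471 to 7585 in Ts1Cje at 19-20 dpp. For the 4 Sertoli genes it ran from 12459 to 18969 and from 6355 to 18321, and for the 7 round spermatid genes from 10130 to 20686 and from 24398 to 61576. Of the macrophage genes, summed intensity was 300 to 369 in Ts65Dn and 388 to 2248 in Ts1Cje. Germ cell stage markers thus differed between the same groups of arrays as the 7 genes, and their part in that difference was not tested.

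**Figure D4:**
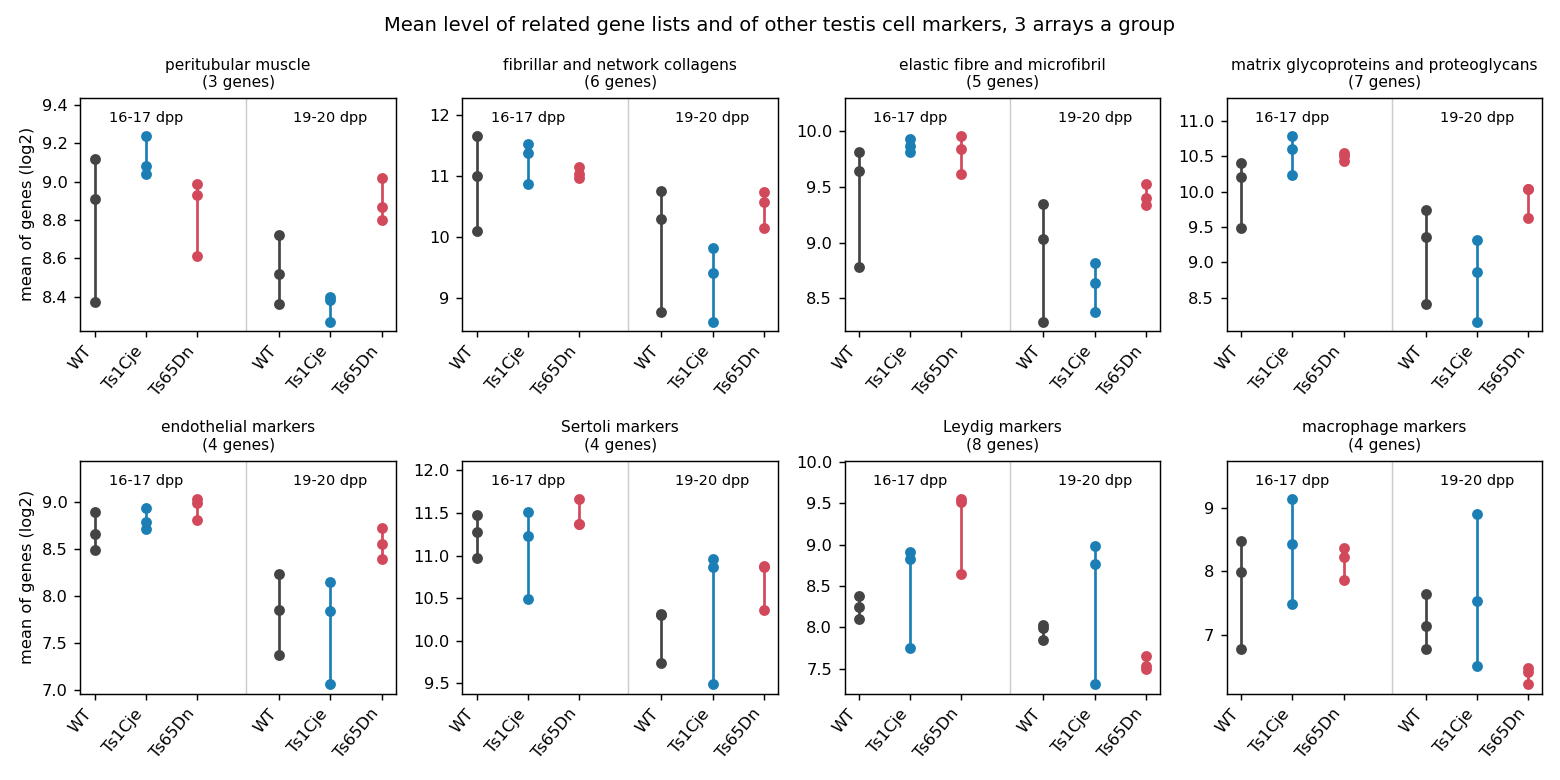
Mean normalised log2 level of 8 gene lists in the 6 groups, with each of the 3 arrays of a group as a point and a line over their range. At 19-20 dpp the collagen means are 8.61 to 9.82 in Ts1Cje and 10.14 to 10.73 in Ts65Dn without overlap, while the Sertoli means are 9.49 to 10.96 and 10.36 to 10.88 and overlap.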

How the data were processed

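Biotin-labelled total RNA of 18 samples was measured on 1 Illumina bead array each, per the labels. Each deposited file holds, per the file headers, the mean signal intensity, its bead standard error, the number of beads and a detection p-value of each probe on each array. BeadStudio is named in the submitters' processing notes, with no version given in the sources used here. Deposited intensities were neither background-subtracted nor normalised between arrays, as their values show. The deposited series table holds log2 intensities with a median of 7.64 on every array, correlated at 0.9991 or more with the log2 signal of its array, and served as an alternative.

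Of 46657 probes 178 controls were left out. Intensities were corrected with the nec function of limma 3.58.1 (R 4.3.3) from the detection p-values (offset 16), quantile-normalised and put on the log2 scale. Probes with a detection p under 0.05 on at least 3 arrays were tested (21313). One limma model with 6 group terms gave 5 tested and 9 described contrasts, with p-values adjusted by the Benjamini-Hochberg method over all tested probes. The model and the adjustment were also run on simulated normalised values, which did not cover the background correction, the normalisation or the detection filter. Probes were named by the zero-padded number of their target matched to gene numbers of the RefSeq table of GRCm38.p6 (9796 probes, 8102 genes, 4811 of them tested), and probe sequences were not used to check the names. A gene with several probes counts by its brightest tested probe, except Fbln1, whose 2 probes are given. Promoter sequences are from RefSeq. The 3 arrays of a group limit the precision.

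The members, gene lists and contrasts were chosen with earlier results of these data known. At most the 3 largest called changes of a list were named, and the 10 genes most like the mean profile and 3 most like each member were ranked. Some genes of these lists and rankings are not reported here. Samples of the same number did not deviate together in every pair of groups: correlations of their deviations ran from -0.30 to 0.64. All 3 were over 0.1 in 6 of 15 pairs of groups, so a shared part of the replicate number is not excluded. In samples numbered 1, the mean of the Sertoli markers lay below the group mean in every group (-0.95 to -0.10). That of the round spermatid markers lay above it (0.44 to 1.47) except in Ts65Dn of 16-17 dpp (-0.12). The numbers in the array names, per the file headers, form 3 runs of 6 with 1 array of each group, which differ from the sample numbers for 2 WT arrays of 19-20 dpp. What a run records is not given. Arrays of a run did not deviate together in every pair of groups either (correlations from -0.46 to 0.64, 3 of 15 pairs of groups with all 3 over 0.1). Alternatives were no background correction, median scaling, the series table, other detection filters, a replicate block, the run as a term, array weights, fitting only the groups compared, and leaving out each array.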

Additional observations from a re-analysis of the deposited data

How the results depend on the processing

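With 3 arrays a group, single arrays moved several counts. The count of the 7 genes called by limma ranged with 1 array left out from 1 to 4 for age in WT, from 3 to 6 for age in both trisomies, from 0 to 1 for both trisomies against WT at 16-17 dpp, and was 0 throughout at 19-20 dpp and for the interaction. With array weights it was 4 for age in WT and 1 for the interaction (Fbln1, 0.76 ± 0.20, adjusted p = 0.039), and with all probes kept it was 3 for age in both trisomies. Ltbp2 missed the threshold in the mean of the trisomies without background correction (adjusted p = 0.058), in the series table (0.056) and with the replicate block (0.051), and Acta2 with array weights (0.060). The replicate block changed no other call of the 7 genes. With the run of array numbers as a term, an alternative added after the data were seen, Ltbp2 also missed the threshold (0.053), no other call of the 7 genes changed, and the counts over all probes stayed within 1.5 times of those reported.

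The count of all probes called ranged with 1 array left out from 5315 to 11330 for age in WT, from 9099 to 11707 for age in both trisomies, from 0 to 10 and from 0 to 929 for both trisomies against WT at 16-17 and 19-20 dpp, and from 0 to 17 for the interaction. At 16-17 dpp the 2 probes became 4 with median scaling, 0 with all probes kept, 1 with probes detected on all arrays, 7 with the replicate block, 223 with array weights and 1 with only the groups compared. At 19-20 dpp the 0 became 3 with all probes kept, 4 with the replicate block and 4164 with array weights, and for the interaction 1 with the replicate block and 1611 with array weights. The cause was not tested.

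The median of Ts65Dn minus Ts1Cje over the 7 genes ranged from 1.91 to 2.26 at 19-20 dpp and from -0.35 to 0.21 at 16-17 dpp with 1 array left out. Of 63 described values of the 7 genes 21 changed sign with 1 array or another left out. Of these 20 were 0.38 or less in size with all arrays, for example Spp1 in Ts65Dn minus Ts1Cje at 16-17 dpp (-0.12, and 1.45 without Ts65Dn replicate 1) and for age in Ts65Dn (0.38, and -1.19 without that array). The other was Sfrp1 in Ts65Dn minus WT at 19-20 dpp, 0.85 with all arrays and from -0.09 to 1.54 with 1 array left out, the ends being without WT replicate 3 and without WT replicate 2. With array weights Acta2 in Ts1Cje minus WT at 16-17 dpp was -0.92 in place of 0.13. The differences of Ts65Dn minus Ts1Cje at 19-20 dpp changed sign for 0 of the 7 genes with 1 array left out. They could not do otherwise, since the arrays of these groups did not overlap for any of the 7, so this is no sign of robustness.

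Without background correction several differences of dim genes were smaller. At 19-20 dpp Ts65Dn minus Ts1Cje was 2.57 in place of 3.82 for Spp1 and 1.28 in place of 2.08 for Sfrp1 (2.66 and 1.33 in the series table). Ts65Dn and Ts1Cje minus WT at 16-17 dpp were 2.56 and 2.41 in place of 3.63 and 3.75 for Spp1, and the age change in Ts1Cje was -1.40 in place of -2.50 for Col1a2, -2.36 in place of -3.57 for Spp1 and -1.77 in place of -2.68 for Sfrp1.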
